A study of Homo sapiens with 16 samples.

Results

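A panel of 37 genes of glycolysis and the response to low oxygen was followed in A549, a cell line from a human lung adenocarcinoma, through an epithelial to mesenchymal transition (EMT) driven by TGF-beta. The members were chosen by name: glycolytic enzymes, glucose and lactate transporters, and genes linked to hypoxia-inducible factor (HIF). All 37 were found among the 57773 genes measured, and 36 of them were among the 16967 genes tested, which reached at least 1 TPM in at least 2 libraries. HK2 was the member that did not pass. TPM is the share of a library's transcripts that come from a gene, corrected for gene length and scaled to the same total in every library. RNA was sequenced from 8 groups of cells that differed in the time of treatment, 0, 6, 12, 24, 36, 48, 72 and 96 h, with 2 libraries each, numbered replicate 1 and replicate 2, 16 in all. The 0 h cells served as the control for every other time, so these comparisons share the same 2 libraries. No untreated cultures of the later times were used here, so the effect of TGF-beta and that of time in culture cannot be told apart. The labels give neither the dose of TGF-beta nor the oxygen level used. They are also silent on whether the replicates were grown separately, and the p-values therefore measure only how far these samples spread, which may be technical.

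Glycolysis turns glucose into pyruvate through a chain of enzymes. Glucose enters through SLC2A transporters, is trapped by hexokinase, committed by phosphofructokinase and split by aldolase, and the lower part of the chain then harvests ATP. Lactate dehydrogenase converts pyruvate to lactate, which leaves the cell through SLC16A transporters. PDK1 inactivates pyruvate dehydrogenase and so holds back the oxidation of pyruvate. HIF is a transcription factor made of an oxygen-sensitive alpha subunit (HIF1A or EPAS1) and a stable beta subunit. With oxygen present, prolyl hydroxylases such as EGLN1 and EGLN3 mark the alpha subunit for destruction. In low oxygen it persists and activates genes for glucose use, acid balance, blood vessel growth and mitochondrial turnover, many of the members among them. HIF binds DNA at a short core sequence, the hypoxia response element. In carcinoma cells of the lung, TGF-beta is known to drive EMT, and glucose use and EMT are often studied together.

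The cores ACGTG and GCGTG were searched on both strands in the 250 bases before the start of each gene in a RefSeq table of GRCh38.p14, counting overlapping matches separately, so that the palindrome CACGTG gives 2. Of the members, 32 matched the table by symbol. SLC2A3, VEGFA, SLC16A1, BNIP3L and NDRG1 did not match. A core was present in 22 of the 32 windows (68.8%), against 15172 of all 35116 windows (43.2%). For the members 1 window each was counted, while the second share covers every window, whether or not its gene was tested here. As the members were chosen in part for a link to HIF, the 2 shares are not a test. The windows printed here are those of CA12, ADM, PFKFB3 and ALDOC, which were lower late in the course with and without a rescaling of the libraries, of BNIP3, which holds 6 cores, and of LDHA, a known HIF target that was called at no time. GPI (1 core) and EGLN3 (0 cores) were also called lower with and without the rescaling and are not printed. They are CA12, chr15:63381847-63382096, minus strand; ADM, chr11:10304823-10305072, plus strand; PFKFB3, chr10:6144671-6144920, plus strand; ALDOC, chr17:28576896-28577145, minus strand; BNIP3, chr10:131981924-131982173, minus strand; and LDHA, chr11:18394313-18394562, plus strand. Each is written 5′ to 3′ on the strand of its gene, ending at the base before the start, and capitals mark the cores.
CA12: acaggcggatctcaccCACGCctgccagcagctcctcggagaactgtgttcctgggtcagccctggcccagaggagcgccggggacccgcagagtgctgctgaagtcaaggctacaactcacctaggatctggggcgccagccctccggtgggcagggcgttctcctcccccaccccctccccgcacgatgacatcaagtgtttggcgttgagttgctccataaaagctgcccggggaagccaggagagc
ADM: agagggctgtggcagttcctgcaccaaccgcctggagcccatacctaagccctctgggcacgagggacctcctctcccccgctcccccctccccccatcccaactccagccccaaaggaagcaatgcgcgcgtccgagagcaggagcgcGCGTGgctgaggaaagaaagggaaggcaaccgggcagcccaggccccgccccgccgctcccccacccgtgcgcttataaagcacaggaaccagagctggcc
PFKFB3: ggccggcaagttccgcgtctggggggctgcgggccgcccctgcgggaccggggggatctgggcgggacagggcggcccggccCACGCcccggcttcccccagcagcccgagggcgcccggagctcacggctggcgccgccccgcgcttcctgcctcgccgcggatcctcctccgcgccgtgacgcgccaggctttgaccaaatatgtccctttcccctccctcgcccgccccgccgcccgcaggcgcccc
ALDOC: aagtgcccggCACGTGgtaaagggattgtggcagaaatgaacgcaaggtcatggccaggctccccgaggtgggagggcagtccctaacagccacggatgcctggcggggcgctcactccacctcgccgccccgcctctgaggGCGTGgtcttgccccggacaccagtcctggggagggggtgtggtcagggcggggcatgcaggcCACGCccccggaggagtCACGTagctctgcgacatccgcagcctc
BNIP3: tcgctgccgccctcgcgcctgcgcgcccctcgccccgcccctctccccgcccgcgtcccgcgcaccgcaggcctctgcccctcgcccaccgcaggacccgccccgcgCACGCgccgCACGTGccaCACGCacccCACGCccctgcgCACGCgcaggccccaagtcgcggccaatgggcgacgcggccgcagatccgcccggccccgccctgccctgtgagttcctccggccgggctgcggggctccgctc
LDHA: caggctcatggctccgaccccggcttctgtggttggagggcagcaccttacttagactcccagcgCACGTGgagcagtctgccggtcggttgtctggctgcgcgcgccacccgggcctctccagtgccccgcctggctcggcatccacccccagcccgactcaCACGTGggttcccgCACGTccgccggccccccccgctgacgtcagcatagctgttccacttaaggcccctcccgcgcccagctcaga
CA12, ADM and PFKFB3 each held 1 core, and ALDOC and LDHA each held 5. The windows of SLC2A1, HK1, PFKM, PFKP, TPI1, PGAM1, PKM, PDK1, SLC16A3 and EGLN3 held neither core. A match is a description of the sequence and not a bound site.

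The libraries differed in ways that touch the values of all members. Abundant small RNAs (the 3 RN7SL genes, RN7SK, RMRP and RPPH1, 6 in all) held a large and uneven part of each library. That part was lowest in 12 h replicate 1 (42.5% of its TPM) and highest in 48 h replicate 1 (64.1%). TPM of every other gene are pressed down where it is large. The median log2 difference of all genes from 0 h ranged from -0.46 (48 h) to 0.03 (12 h). Rescaling each library by a trimmed mean of its log ratios, called trimmed-mean scaling here, moved these medians to between -0.05 and 0.13, and its results are given where they end or make a call. A zero was listed for 36116 genes in 36 h replicate 2 and 36294 in 48 h replicate 2, and for 29278 to 31187 in the others. The epithelial keratin KRT18 had a median of 1244 TPM, and from 0 to 96 h the mean of the adhesion gene CDH1 went from 21.04 to 1.84 TPM and that of the matrix gene FN1 from 109 to 1279 TPM. Of the 6 alveolar type 2 markers, the surfactant genes SFTPA1, SFTPA2 and SFTPC and the factor NKX2-1 stayed at or below 0.25 TPM in every library and SFTPB at or below 0.64, while the lipid transporter ABCA3 ranged from 4.26 to 12.7 TPM. Summed markers of endothelial cells lay between 0 and 0.29 TPM, of erythroid cells between 0 and 0.39, of fibroblasts between 1.22 and 6.91 and of leukocytes between 5.0 and 13.6, the last mostly CD68 and LYZ, with PTPRC at most 0.31 TPM. In bulk RNA of this kind, fewer cells of a type and less RNA per cell cannot be told apart.

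On TPM as deposited, most members that changed were lower late in the course, and the most were called at 48 h. Across the 7 comparisons with 0 h, 17 of the 36 tested members were called at some time by limma (moderated linear model on log2(TPM + 1), adjusted p below 0.05 over all genes). SLC2A3, a high-affinity glucose transporter, was the 1 called higher, against 1.33% of all genes, and 16 were called lower, against 6.97%. With the replicate number as a block 21 were called: SLC2A1, SLC2A3 and VEGFA were higher and 18 were lower, beside 3.9% and 15.4% of all genes. Under trimmed-mean scaling 8 were called: SLC2A1 and SLC2A3 were higher and ADM, ALDOC, CA12, EGLN3, GPI and PFKFB3 lower, beside 3.95% and 3.02% of all genes. With scaling and block together 15 were called, 8 higher and 7 lower, beside 9.21% and 8.36%. The balance of directions over the panel therefore depends on how the libraries are scaled. So does the time with the most calls. Scaling and block together called 9 members at 36 h, 8 at 48 h and 9 at 72 h, beside 8.67, 11.1 and 9.4% of all genes.

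Early in the course limma called no member. At 6 h, limma called 0 of 36 members and 0.0177% of all genes, and 4 members had an unadjusted p under 0.05. The median log2 difference of the members was -0.15, beside -0.37 for all genes, and with trimmed-mean scaling it turned to 0.45, beside 0.13. Below 0 were 27 of the 36 members on TPM as deposited and 4 with scaling. With the block the 6 h count was again 0 (0.0707% of all genes), and with trimmed-mean scaling it was 1, SLC2A1 (0.506% of all genes). At 12 h, limma called 0 members and 0.383% of all genes, with 7 members at an unadjusted p under 0.05, and the medians were 0.11 and 0.03. The block gave 3 calls at 12 h, SLC2A1 and SLC2A3 higher and CA12 lower (2.61% of all genes), and scaling gave 1, SLC2A1 higher (1.24%).

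At 24 h, 2 members were called: SLC2A3 was higher and CA12 lower, beside 0.613% of all genes called higher and 0.595% lower. The block made this 5, adding GAPDH, ADM and BNIP3 as lower (3.79% of all genes), and scaling left 2 (2.77%). At 36 h, SLC2A3 was higher (0.967% of all genes called higher) and 5 members were lower: ALDOC, GAPDH, CA12, ADM and BNIP3 (1.33% of all genes called lower). The block gave 8 calls (5.63% of all genes) and scaling 3, SLC2A3, CA12 and ADM (3.62%).

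At 48 h, 16 members were lower and 0 higher, beside 6.8% of all genes called lower and 0.796% higher. The median member difference was -0.77, beside -0.46 for all genes. The block gave 20 calls, 18 of them lower (16.6% of all genes either way). Scaling left 7 calls (4.78% of all genes): SLC2A3 was higher and GPI, ALDOC, PFKFB3, EGLN3, CA12 and ADM were lower, and the medians were -0.31 and -0.02. The small RNAs took 64.1% and 60.2% of the TPM in the 48 h libraries and 51.8% in both 0 h libraries, and rescaling the libraries without these 6 RNAs gave 8 lower members and 0 higher at 48 h, beside 2.84% and 1.37% of all genes.

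At 72 h, 7 members were lower and 0 higher, beside 1.74% of all genes called lower and 0.831% higher. With the block 14 were called, 13 of them lower (6.3% of all genes either way), and with scaling 5 (3.59%). At 96 h, PFKFB3, CA12 and ADM were lower and 0 members higher, beside 1.26% and 0.536% of all genes. The block made this 8 (4.82% of all genes), and with scaling the count was again 3 (2.57%). Between 6 and 24 h limma called 0 members and 0.00589% of all genes, with 3 members at an unadjusted p under 0.05. Between 24 and 96 h it called 0 members and 0.0118% of all genes, with 6 members at an unadjusted p under 0.05. With the block each of these gave 1 call, SLC2A3 higher at 24 h than at 6 h and SLC2A1 lower at 96 h than at 24 h (0.46% and 0.277% of all genes), and with scaling each gave 0 (0.0732% and 0.0854%).

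**Figure D1:**
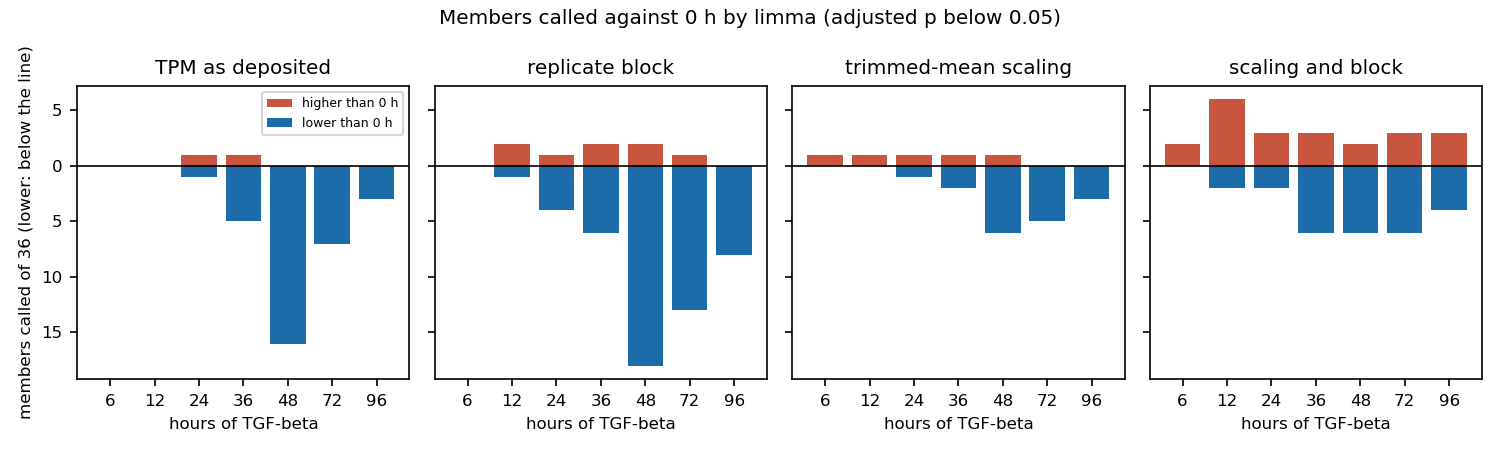
Number of the 36 tested members called by limma at each time against 0 h, higher above the line and lower below it, for TPM as deposited, with the replicate block, with trimmed-mean scaling and with both. TPM as deposited gave 16 lower members at 48 h, and scaling left 6 lower and 1 higher.

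The hours were also used as a scale. A straight line of log2(TPM + 1) on hours fell with time for 13 of 36 members (36.1%) and rose for 0, against 4.02% of all genes called lower and 1.6% called higher. The 13 were SLC2A1, GPI, PFKP, ALDOA, ALDOC, TPI1, PFKFB3, PGK1, PGAM1, ENO1, EGLN3, CA12 and ADM. Scaling kept 11 of them and lost TPI1 and PGK1, where 4.4% of all genes were called lower. SLC2A1, PFKFB3, ALDOA, PGAM1, ENO1, CA12 and ADM were called whichever of the 16 libraries was left out. The calls of GPI, ALDOC, PGK1 and TPI1 were lost without 72 h replicate 1 or 0 h replicate 2, those of GPI, ALDOC and TPI1 also without 0 h replicate 1, and that of TPI1 also without 6 h or 12 h replicate 2 (adjusted p 0.0503 to 0.0782). The call of PFKP was lost without 6 h or 96 h replicate 2 (0.0523 to 0.0884). That of EGLN3 was lost without any 1 library of 0, 6, 24 or 72 h, 12 h replicate 2 or 36 h replicate 1 (0.0516 to 0.0905). The F test over the 8 times called 10 members (27.8%), against 1.72% of all genes, and 16 with the block, against 6.13%. The block added SLC2A3, PFKP, TPI1, GAPDH, PGK1 and BNIP3 to the F test calls (adjusted p from 0.0107 to 0.0319). Scaling gave 8 F test calls, against 3.29% of all genes: it ended those of ALDOA, PGAM1 and ENO1 (adjusted p = 0.175, 0.269 and 0.299) and made that of PFKP (0.0323).

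Single libraries decided many of the calls against 0 h. Without 0 h replicate 2 the calls that held were 0 of 2 at 24 h, 0 of 6 at 36 h, 1 of 16 at 48 h, 1 of 7 at 72 h and 0 of 3 at 96 h, and CA12 was the member that held at 48 and 72 h. Without 0 h replicate 1 they were 1, 1, 4, 3 and 2 of the same totals. At 48 h, 2 calls held without 48 h replicate 1 (CA12 and ADM) and 12 without 48 h replicate 2. No 24 h call held without either 24 h library, and no 36 h call held without 36 h replicate 2. At 72 h, CA12 alone held without 72 h replicate 1, and at 96 h it alone held without 96 h replicate 1. Of the 13 slope calls, 8 to 13 held, with the fewest without 0 h replicate 2 or 72 h replicate 1. Of the 10 F test calls, 1 to 10 held, with the fewest (CA12) without 0 h replicate 2. In these fits the lone library of a time is assumed to vary like those of the other times. Without 0 h replicate 1 or 0 h replicate 2, fewer of all genes were called at 24 to 96 h as well. The same held at 48 h without 48 h replicate 1, so these losses were not particular to the members.

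**Figure D2:**
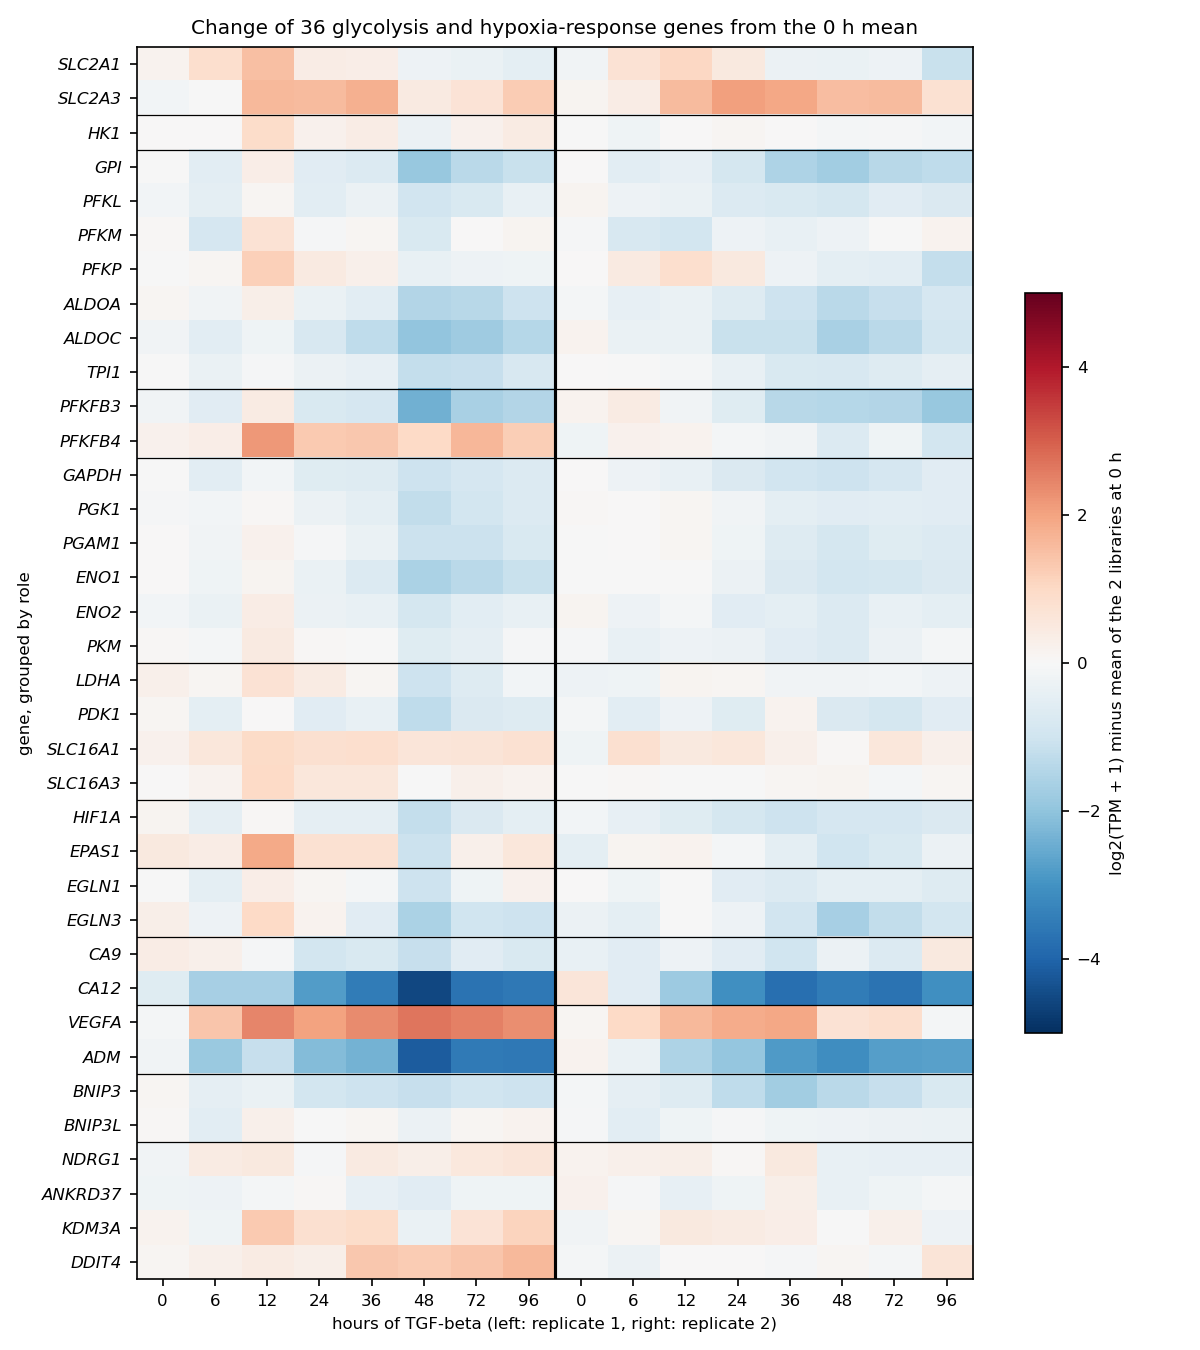
Difference of each of the 36 tested members from its 0 h mean on the log2(TPM + 1) scale in all 16 libraries, replicate 1 on the left and replicate 2 on the right, with genes grouped by role. CA12 and ADM are the darkest rows below 0 from 24 h on in both replicates, and SLC2A3 lies above 0 from 12 h on, while VEGFA, PFKFB4 and DDIT4 are high in late replicate 1 libraries.

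In the values that follow, series are given in the order 0, 6, 12, 24, 36, 48, 72 and 96 h, and means are ± SD over 2 libraries (n = 2). Log2 differences are on the log2(TPM + 1) scale, which understates changes of low values, and adjusted p-values are from limma. Where libraries are said to lie above or below others, this is on TPM as deposited and need not hold with trimmed-mean scaling. At 6 h, scaling turned the differences of 23 members from negative to positive and 0 the other way. Scaled 6 h differences were 0.119 for GPI, 0.352 for ALDOA, 0.055 for ALDOC, 0.465 for TPI1 and 0.263 for GAPDH, none of them called.

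The 2 glucose transporters took different courses. SLC2A1 (GLUT1), the common basal glucose transporter, measured 43.9, 68.6, 110.3, 50.1, 48.5, 32.1, 30.4 and 26.8 TPM in replicate 1 and 33.4, 63.7, 78.7, 54.1, 31.4, 30.5, 32.3 and 17.3 TPM in replicate 2. Both series peaked at 12 h, where the libraries lay above both 0 h libraries, and both ended below them at 96 h. The 12 h difference was 1.26 (SE 0.28, adjusted p = 0.0822), which passed with the block (adjusted p = 0.0124) and with scaling (1.23 with adjusted p = 0.0498). At 6 h it was 0.77 (SE 0.28, adjusted p = 0.325), and scaling brought it to 1.41 with adjusted p = 0.0483. SLC2A1 fell along the course by 0.36 log2 units per 24 h (SE 0.08, adjusted p = 0.0123). Its difference between 24 and 96 h, -1.23 (SE 0.28, adjusted p = 0.233), was called with the block (adjusted p = 0.0472).

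SLC2A3 (GLUT3), a transporter with a higher affinity for glucose, measured 19.4, 21.4, 67.1, 65.7, 75.6, 29.2, 35.2 and 52.5 TPM in replicate 1 and 23.5, 28.2, 65.5, 92.6, 85.3, 64.7, 66.7 and 36.9 TPM in replicate 2. All 12 libraries from 12 h on were above both 0 h libraries, and at 48 and 72 h replicate 2 was well above replicate 1. SLC2A3 rose at 24 h by 1.82 (SE 0.38, adjusted p = 0.0376) and at 36 h by 1.86 (SE 0.38, adjusted p = 0.022). Its differences of 1.59 (SE 0.38, adjusted p = 0.101) at 12 h, 0.99 (SE 0.38, adjusted p = 0.112) at 48 h and 1.15 (SE 0.38, adjusted p = 0.139) at 72 h passed with the block (adjusted p = 0.0177, 0.0471 and 0.0476), and under scaling the 48 h difference was 1.54 with adjusted p = 0.0386. With the block SLC2A3 was also higher at 24 h than at 6 h (1.63, adjusted p = 0.0419). The 24 h call against 0 h was lost without any 1 library of 0, 6, 24 or 36 h (adjusted p 0.0517 to 0.351), and the 36 h call without either library of 0 or 36 h (0.0858 to 0.2). Within a library, the share of SLC2A3 in the summed TPM of both transporters does not depend on the scale of the library. It was 30.7, 23.7, 37.8, 56.7, 60.9, 47.6, 53.7 and 66.2% in replicate 1 and 41.3, 30.7, 45.4, 63.1, 73.1, 68, 67.4 and 68% in replicate 2. From 24 h on every library had a larger share than both 0 h libraries, so the leading transporter transcript passed from SLC2A1 to SLC2A3 in all but 48 h replicate 1, where the share was 47.6%.

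**Figure D3:**
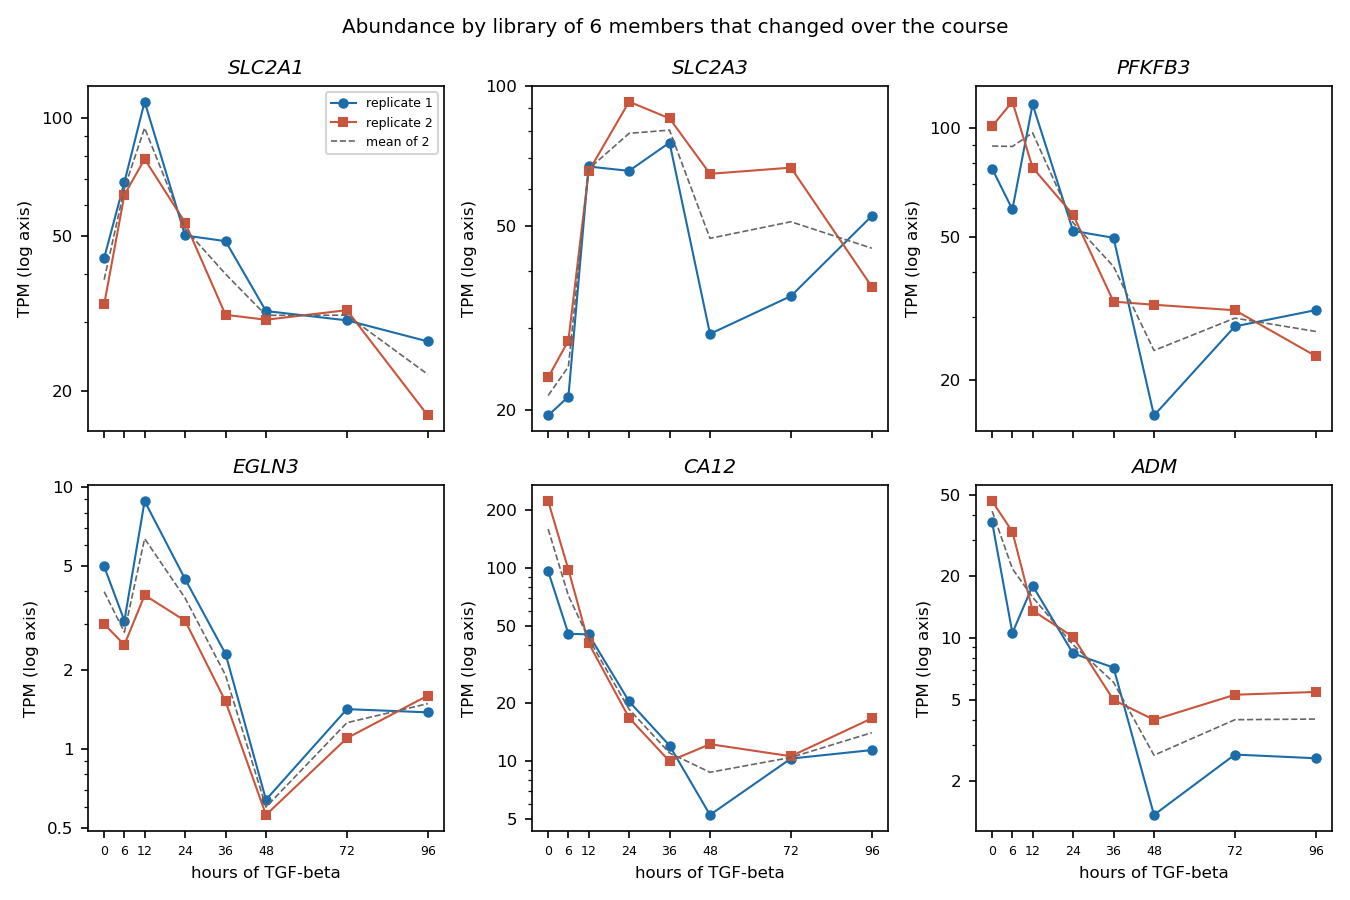
TPM on a log axis against hours for SLC2A1, SLC2A3, PFKFB3, EGLN3, CA12 and ADM, with replicate 1 as circles, replicate 2 as squares and their mean as a dashed line. SLC2A1 peaks at 12 h and SLC2A3 stays above its 0 h values of 19.4 and 23.5 TPM, while CA12 and ADM lie below their 0 h values from 12 h on in both replicates.

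Hexokinase, which phosphorylates glucose, was represented among the tested members by HK1. HKDC1, which is no member and is given with the other pathway genes, was higher at 0 h. It measured 20.2 and 28.4 TPM there, beside 13.9 and 13.55 TPM for HK1. HK1 ranged from 10.9 to 27.1 TPM and was called in no comparison. HK2, the inducible hexokinase and a HIF target, lay between 0.03 and 0.33 TPM in all 16 libraries, too low to test, and made up at most 1.77% of the HK1 and HK2 sum.

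The summed TPM of the 16 enzymes from hexokinase to lactate dehydrogenase was lower late in the course. In replicate 1 it was 7801 TPM at 0 h, 3541 at 48 h and 4970 at 96 h, and in replicate 2 it was 7427, 4233 and 5301 TPM. As a share of the TPM outside the 6 small RNAs it was 1.62% and 1.54% at 0 h, 0.985% and 1.06% at 48 h, and 1.01% and 1.40% at 96 h. Both late pairs lay below the 0 h pair on this scale too, but not both with trimmed-mean scaling. That scaling divides the 0 h libraries by 1.14 and 1.24 and 96 h replicate 2 by 0.735. The sum of 96 h replicate 2 then lies above both 0 h sums, while both 48 h sums stay below them. The 13 mitochondrially encoded transcripts held 1.89% and 1.77% at 0 h, 1.01% and 1.23% at 48 h, and 1.84% and 1.55% at 96 h on the same scale, and their part in the enzymes' values was not tested. Of the 15 tested enzymes, 9 fell at 48 h and 0 rose, beside 6.8% of all genes called lower, with a median difference of -0.93 beside -0.46 for all genes. The block gave 11, beside 16.6% of all genes called either way, and trimmed-mean scaling 2 (GPI and ALDOC), beside 4.78%, with a median of -0.40 under scaling. By the slope on hours 8 fell, beside 4.02% of all genes, and 6 of these fell under scaling, beside 4.4%.

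In the upper part of the pathway, GPI, ALDOA, ALDOC, PFKL and TPI1 fell at 48 h. GPI, which turns glucose 6-phosphate into fructose 6-phosphate, measured 333, 232, 414, 227, 206, 89.6, 129.9 and 155 TPM in replicate 1 and 334, 231, 250.1, 179, 115, 98.5, 128 and 138 TPM in replicate 2. The 6 h libraries and all from 24 h on lay below both 0 h libraries. GPI fell at 48 h (log2 difference -1.82, SE 0.28, adjusted p = 0.00497) and at 72 h (log2 difference -1.36, SE 0.28, adjusted p = 0.0251), and the 48 h call held under scaling (-1.25 with adjusted p = 0.0221). At 96 h it was -1.19 (SE 0.28, adjusted p = 0.057), called with the block (adjusted p = 0.0119). The 48 h call was lost without 0 h replicate 2 or 48 h replicate 1 (adjusted p 0.0601 to 0.083), and the 72 h call without any library of 0 or 72 h (0.0851 to 0.237).

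ALDOA, the main aldolase, measured 572, 471, 646, 417, 366, 191, 203 and 259.5 TPM in replicate 1 and 488, 395, 417, 340.4, 257, 206, 239 and 298 TPM in replicate 2. Its 6 h libraries and all from 24 h on were below both 0 h libraries, and replicate 1 peaked at 12 h. ALDOA fell at 48 h (log2 difference -1.41, SE 0.25, adjusted p = 0.00971) and at 72 h (log2 difference -1.26, SE 0.25, adjusted p = 0.0202). Neither passed under scaling (-0.84 with adjusted p = 0.191, and -1.06 with adjusted p = 0.116), though the slope did (-0.27 per 24 h, adjusted p = 0.0293). ALDOC, an aldolase of much lower abundance, measured 3.45, 2.47, 3.38, 1.92, 1.08, 0.27, 0.47 and 0.86 TPM in replicate 1 and 4.66, 2.94, 3.04, 1.32, 1.33, 0.65, 0.95 and 1.67 TPM in replicate 2. Each library after 0 h was below both 0 h libraries. ALDOC fell at 36 h (log2 difference -1.19, SE 0.28, adjusted p = 0.0477), at 48 h (log2 difference -1.79, SE 0.28, adjusted p = 0.00503) and at 72 h (log2 difference -1.57, SE 0.28, adjusted p = 0.011), and the last pair of calls held under scaling (0.0153 and 0.026 as adjusted p), while that of 36 h did not (0.0838). The ALDOA calls were lost without either 0 h library or replicate 1 of that time (adjusted p 0.0781 to 0.205), those of ALDOC at 48 and 72 h without 0 h replicate 2 or replicate 1 of that time (0.069 to 0.202), and the 36 h call of ALDOC without any 1 library of 0, 6, 24, 36, 48 or 72 h (0.0521 to 0.496).

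The 3 phosphofructokinase genes, whose enzyme commits sugar to glycolysis, differed. PFKP, the platelet isoform and the most abundant here, measured 164, 175, 384, 229, 196, 128, 138 and 143 TPM in replicate 1 and 168, 225, 295, 230.5, 139.7, 117, 113 and 73 TPM in replicate 2. It was highest at 12 h in both replicates and lowest at 96 h in replicate 2 (73.0 TPM). Its slope on hours was -0.30 per 24 h (SE 0.08, adjusted p = 0.0252), lost without 6 h replicate 2 or 96 h replicate 2 (adjusted p 0.0523 to 0.0884), and no comparison with 0 h was called without a rescaling. With scaling and block together the 12 h difference of 0.98 passed (adjusted p = 0.039). PFKL, the liver isoform, measured 20.9, 16.1, 24.5, 15.7, 18.4, 11.3, 13.3 and 17.4 TPM in replicate 1 and 25.3, 19.1, 17.9, 14, 13.1, 11.9, 15.1 and 13.5 TPM in replicate 2. All 10 libraries from 24 h on were below both 0 h libraries, and the 48 h difference of -0.93 (SE 0.25, adjusted p = 0.0422) was not called under scaling (-0.40 with adjusted p = 0.339) or without any 1 library of 0, 6, 24, 48 or 72 h (adjusted p 0.0555 to 0.304). PFKM, the muscle isoform, ranged from 8.96 to 30.1 TPM and was not called. PFKP held 80.7, 87.2, 87.6, 87.5, 83.9, 85.6, 81.5 and 79.3% of the summed TPM of the 3 in replicate 1 and 79.7, 88.6, 91.6, 88.9, 83.9, 81.4, 77.6 and 68.3% in replicate 2, highest at 6 to 24 h and lowest at 96 h.

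TPI1, which interconverts the products of the split, measured 588, 474, 562, 483, 442, 259, 269 and 337 TPM in replicate 1 and 596, 576, 556, 463, 352, 337, 375 and 434 TPM in replicate 2. Every library after 0 h was below both 0 h libraries, and those of 48 h were the lowest of each replicate. TPI1 fell at 48 h (log2 difference -1.0, SE 0.23, adjusted p = 0.0249), a call lost under scaling (-0.44 with adjusted p = 0.572) and without either 0 h library or 48 h replicate 1 (adjusted p 0.115 to 0.216).

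The bifunctional PFKFB enzymes set the level of fructose 2,6-bisphosphate, a potent activator of phosphofructokinase. PFKFB3, the isoform with the higher kinase activity, measured 77.2, 59.5, 117, 51.9, 49.6, 15.9, 28.2 and 31.3 TPM in replicate 1 and 101, 119, 77.8, 57.5, 33, 32.4, 31.2 and 23.3 TPM in replicate 2. From 24 h on each library was below both 0 h libraries, and at 6 h the replicates lay on either side of them. PFKFB3 fell at 48 h (log2 difference -1.91, SE 0.38, adjusted p = 0.0157) and at 96 h (log2 difference -1.68, SE 0.38, adjusted p = 0.0467). At 72 h the difference of -1.55 (SE 0.38, adjusted p = 0.0539) passed with the block (adjusted p = 0.025) and under scaling (-1.35 with adjusted p = 0.0195), and the slope was -0.50 per 24 h (SE 0.09, adjusted p = 0.00357). The 48 h call was lost without 3 libraries, both of 0 h and 48 h replicate 1 (adjusted p 0.0581 to 0.192), and that of 96 h without any 1 library of 0, 24, 36, 72 or 96 h (0.0529 to 0.49). PFKFB4, its relative with HIF-responsive expression, was called in no comparison, and its values are given with the genes whose replicates differed.

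Of the enzymes in the lower part of the pathway, the part that harvests ATP, GAPDH, PGK1, PGAM1 and ENO1 fell at 48 h. GAPDH measured 2359, 1648, 2188, 1539, 1538, 1157, 1324 and 1459 TPM in replicate 1 and 2389, 2011, 1839.7, 1457, 1209, 1166, 1325 and 1619.8 TPM in replicate 2. Its libraries after 0 h were all below both 0 h libraries, and those of 48 h were the lowest of each replicate. GAPDH fell at 36 h (log2 difference -0.80, SE 0.19, adjusted p = 0.0479), at 48 h (log2 difference -1.03, SE 0.19, adjusted p = 0.0113) and at 72 h (log2 difference -0.84, SE 0.19, adjusted p = 0.0354), but under scaling its 48 h difference was -0.47 with adjusted p = 0.532, and the calls of 36 and 72 h also ended (adjusted p = 0.415 and 0.449). The 48 h call was lost without either 0 h library or 48 h replicate 1 (adjusted p 0.0656 to 0.146), that of 36 h without any 1 library of 0, 6, 24, 36, 48 or 72 h (0.0544 to 0.392) and that of 72 h without any 1 of 0, 24 or 72 h (0.0624 to 0.311). GAPDH is widely used as a reference gene, and on the TPM scale its mean was 2374 ± 21.2 at 0 h and 1162 ± 6.32 at 48 h.

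PGK1, the first ATP-yielding enzyme, measured 342, 325, 365, 286, 249.9, 149.7, 185 and 218 TPM in replicate 1 and 364, 355, 374, 309.9, 253, 235, 244 and 240.4 TPM in replicate 2. PGAM1, the mutase that follows it, measured 199, 176, 231, 190.0, 158, 93.7, 94.3 and 116 TPM in replicate 1 and 196, 202, 211, 168, 127, 106, 129 and 122 TPM in replicate 2. In both genes every library from 24 h on lay below both 0 h libraries. At 48 h PGK1 (log2 difference -0.91, SE 0.22, adjusted p = 0.0318) and PGAM1 (log2 difference -0.97, SE 0.21, adjusted p = 0.02) both fell, and neither passed under scaling (0.638 and 0.515 as adjusted p). The slope of PGAM1 passed with scaling (adjusted p = 0.0413) and that of PGK1 did not (0.117). The 48 h calls were lost without either 0 h library or 48 h replicate 1, and that of PGK1 without 24 h replicate 2 as well (adjusted p 0.0507 to 0.267 for PGK1 and 0.105 to 0.19 for PGAM1).

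ENO1, the main enolase, measured 1268, 1081, 1359.6, 999.6, 789, 417, 494 and 575 TPM in replicate 1 and 1238, 1223, 1221, 1021, 767, 668, 687 and 758 TPM in replicate 2. All libraries from 24 h on were below both 0 h libraries, and from 48 h on replicate 1 was lower than replicate 2. ENO1 fell at 48 h (log2 difference -1.25, SE 0.24, adjusted p = 0.015) and at 72 h (log2 difference -1.10, SE 0.24, adjusted p = 0.0331), with neither called under scaling (0.373 and 0.268 as adjusted p). The 48 h call was lost without either 0 h library or 48 h replicate 1 (adjusted p 0.0859 to 0.156), and that of 72 h without any 1 library of 0, 6 or 24 h, 36 h replicate 2 or 72 h replicate 1 (0.0508 to 0.355). ENO2, the neuronal enolase, measured 12.1, 10.3, 17.3, 10.6, 9.96, 6.74, 8.91 and 9.95 TPM in replicate 1 and 14.5, 11.1, 12.4, 8.74, 9.09, 7.91, 10.1 and 9.22 TPM in replicate 2. The 48 h libraries were the lowest of each replicate, and the difference of -0.78 (SE 0.23, adjusted p = 0.0584) passed with the block (adjusted p = 0.0393).

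PKM, pyruvate kinase, measured 1101, 996, 1450.0, 1091, 1047, 685, 763 and 1018 TPM in replicate 1 and 1007, 822, 889, 869, 718, 654, 863 and 988 TPM in replicate 2. The 48 h libraries were the lowest of their series, and at 96 h both libraries were near those of 0 h. The 48 h difference of -0.65 (SE 0.26, adjusted p = 0.121) passed with the block (adjusted p = 0.0424) and under scaling was -0.09 with adjusted p = 0.921.

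With the replicate block, further differences of these enzymes from 0 h passed the test, all of them lower. GAPDH at 24 h was -0.66 (adjusted p = 0.0446 with the block and 0.132 without) and GPI at 36 h -1.11 (0.0155 and 0.0635). At 72 h TPI1, PGK1 and PGAM1 were at -0.90, -0.73 and -0.83 (adjusted p = 0.0185, 0.0321 and 0.0248 with the block). At 96 h ALDOA, ALDOC and ENO1 were at -0.92, -1.17 and -0.92 (adjusted p = 0.03, 0.0228 and 0.0201 with the block).

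Of the members for the fate of pyruvate and lactate (LDHA, SLC16A1, SLC16A3 and PDK1), PDK1 alone was called on TPM as deposited. LDHA, which makes lactate from pyruvate, ranged from 331 to 1134 TPM and was called in no comparison. LDHB, the subunit that favours the return of lactate to pyruvate, is no member and was called lower at 36, 48 and 72 h (adjusted p = 0.0493, 0.0132 and 0.0415), and scaling ended all 3 calls (0.237, 0.351 and 0.265). LDHA held 55.1, 61.6, 69.1, 66.8, 66.8, 58.4, 58 and 63.2% of their sum in replicate 1 and 48.3, 50.9, 60.7, 66, 65.7, 62.7, 63.3 and 60.3% in replicate 2. From 12 h on every library had a larger LDHA share than both 0 h libraries. SLC16A1 and SLC16A3, the lactate exporters MCT1 and MCT4, ranged from 17.1 to 39.4 and from 13.9 to 31.6 TPM. Neither was called, except that with scaling and block together the 6 h difference of SLC16A1 was 1.32 (adjusted p = 0.0267). PDK1, the kinase that inactivates pyruvate dehydrogenase, measured 3.05, 1.68, 2.77, 1.55, 1.93, 0.57, 1.28 and 1.41 TPM in replicate 1 and 2.47, 1.6, 2.15, 1.47, 3.18, 1.3, 1.02 and 1.52 TPM in replicate 2. It was low throughout, with 48 h replicate 1 lowest, and its 48 h difference of -0.98 (SE 0.27, adjusted p = 0.0459) was not called under scaling (-0.67 with adjusted p = 0.196) or without 48 h replicate 1 or any 1 library of 0, 6, 24 or 72 h (adjusted p 0.0629 to 0.306).

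**Figure D4:**
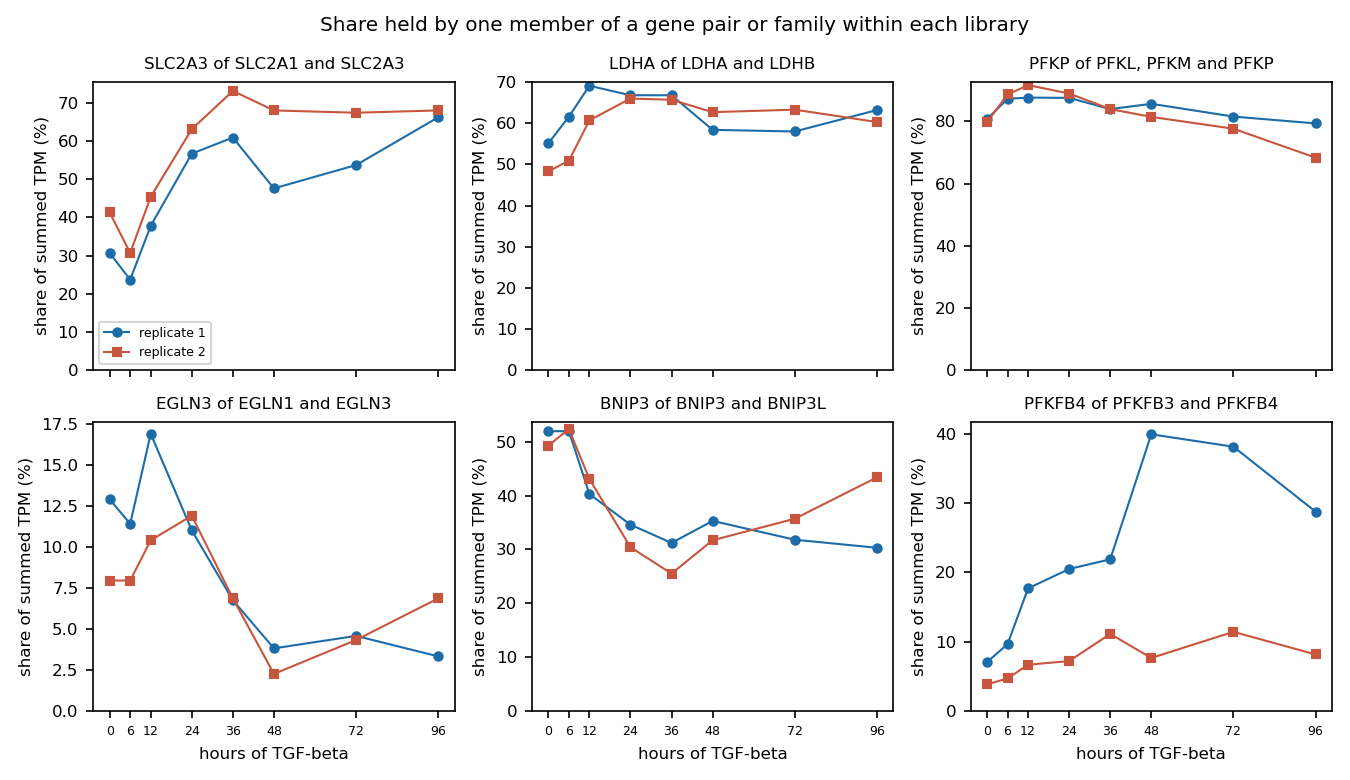
Share of a gene pair's or family's summed TPM (%) held by the named member in each library against hours, with replicate 1 as circles and replicate 2 as squares. SLC2A3 and LDHA gain share after 6 h in both replicates, BNIP3 and EGLN3 lose it by 48 h, and PFKFB4 gains it mainly in replicate 1, where it reaches 40.0%.

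The HIF alpha subunits were called higher at no time on TPM as deposited, with or without the block. HIF1A measured 162, 108, 153, 108, 107, 63.5, 89.2 and 105 TPM in replicate 1 and 133, 109.7, 95.6, 79.6, 70.4, 82, 81 and 88.7 TPM in replicate 2. The 6 h libraries and all from 24 h on were below both 0 h libraries. HIF1A fell at 48 h (log2 difference -1.01, SE 0.28, adjusted p = 0.0461), which was not called under scaling (-0.45 with adjusted p = 0.322) or without any 1 library of 0, 6, 24, 48 or 72 h (adjusted p 0.0585 to 0.29). EPAS1 (HIF-2 alpha) ranged from 7.86 to 68.6 TPM, was lowest at 48 h in both replicates, and was not called on TPM as deposited. With scaling and block together its 12 h difference of 0.99 passed (adjusted p = 0.026). HIF is controlled mainly through the stability of the protein, which RNA does not measure.

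Of the prolyl hydroxylases that mark HIF, EGLN3, itself a well known HIF target, fell and EGLN1 was not called. EGLN3 measured 4.98, 3.09, 8.85, 4.46, 2.31, 0.64, 1.42 and 1.38 TPM in replicate 1 and 3.0, 2.5, 3.87, 3.09, 1.52, 0.56, 1.1 and 1.6 TPM in replicate 2. It peaked at 12 h in both replicates, and the 36 to 96 h libraries all lay below both 0 h libraries. EGLN3 fell at 48 h (log2 difference -1.61, SE 0.34, adjusted p = 0.0195), also under scaling (-1.28 with adjusted p = 0.0238). Its 72 h difference of -1.12 (SE 0.34, adjusted p = 0.113) passed with the block (adjusted p = 0.0334). The 48 h call was lost without any library of 0 or 48 h (adjusted p 0.051 to 0.133). EGLN1 ranged from 16.2 to 43.6 TPM. The share of EGLN3 in their sum was 12.9% and 7.94% at 0 h and 3.80% and 2.24% at 48 h (replicates 1 and 2).

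The lowest log2 difference of the 36 tested members was that of CA12 at 48 h. CA12 is a membrane carbonic anhydrase that helps to balance acid at the cell surface. CA12 measured 96.4, 45.7, 45.4, 20.4, 12, 5.25, 10.3 and 11.4 TPM in replicate 1 and 223, 98.5, 40.9, 16.7, 9.97, 12.2, 10.6 and 16.6 TPM in replicate 2. The 0 h libraries differed from each other, replicate 2 being higher, and every library from 12 h on lay below both. CA12 fell at 24 h (log2 difference -2.92, SE 0.45, adjusted p = 0.00981), at 36 h (log2 difference -3.63, SE 0.45, adjusted p = 0.00272) and at 48 h (log2 difference -4.02, SE 0.45, adjusted p = 0.00163). It stayed lower at 72 h, -3.69 (SE 0.45, adjusted p = 0.00181), and at 96 h, -3.32 (SE 0.45, adjusted p = 0.00408). All 5 of these calls held with the block and with scaling, where the differences ran from -2.73 to -3.50, and the 12 h difference of -1.75 (SE 0.45, adjusted p = 0.128) passed with the block (adjusted p = 0.0276). The 48 and 72 h calls held whichever library was left out. The 24 h call was lost without 0 h replicate 2 or either 24 h library (adjusted p 0.0788 to 0.208), that of 36 h without 0 h replicate 2 or 36 h replicate 2 (0.0518 to 0.0586), and that of 96 h without 0 h replicate 2 (0.0915). CA9, the related enzyme often used as a marker of hypoxia, lay between 0.02 and 2.21 TPM and was not called.

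Of the 2 secreted HIF targets, ADM fell, and VEGFA was called higher with the replicate block. ADM, which encodes the vasodilator peptide adrenomedullin, measured 36.8, 10.6, 18, 8.42, 7.18, 1.37, 2.7 and 2.59 TPM in replicate 1 and 46.7, 33.1, 13.6, 10.1, 4.99, 3.99, 5.29 and 5.46 TPM in replicate 2. Every library after 0 h was below both 0 h libraries, and at 6 h replicate 1 was the lower. ADM fell at 36 h (log2 difference -2.60, SE 0.50, adjusted p = 0.0183), at 48 h (log2 difference -3.62, SE 0.50, adjusted p = 0.00298), at 72 h (log2 difference -3.14, SE 0.50, adjusted p = 0.00715) and at 96 h (log2 difference -3.14, SE 0.50, adjusted p = 0.00849). These 4 calls held with the block and with scaling, and the 24 h difference of -2.05 (SE 0.50, adjusted p = 0.0771) passed with the block (adjusted p = 0.0142). Without 0 h replicate 2 each of the 4 was lost, as were those of 36 h without 0 h replicate 1 or either 36 h library, of 72 h without 72 h replicate 1 and of 96 h without 96 h replicate 1 (adjusted p 0.0649 to 0.252).

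VEGFA, the main growth factor for blood vessels, measured 11.3, 33.6, 70.2, 51.5, 66.3, 81.8, 74.4 and 64.4 TPM in replicate 1 and 13, 25.5, 38.8, 46.7, 49.8, 20.7, 22.4 and 11.3 TPM in replicate 2. In replicate 1 it was high from 12 h on, while in replicate 2 it was back at 11.3 TPM at 96 h, the level of 0 h replicate 1. From 6 to 72 h every library lay above both 0 h libraries. The difference was 1.93 (SE 0.75, adjusted p = 0.327) at 24 h, 2.16 (SE 0.75, adjusted p = 0.187) at 36 h and 1.69 (SE 0.75, adjusted p = 0.161) at 48 h, none of which passed. With the block VEGFA rose at 36 h (adjusted p = 0.0272) and at 48 h (0.0425), and with scaling and block together also at 12, 24 and 72 h (adjusted p = 0.0499, 0.0297 and 0.0437). VEGFA made up 23.5% and 21.8% of the summed TPM of VEGFA and ADM at 0 h, 85.9% and 82.2% at 24 h, and 96.1% and 67.4% at 96 h (replicates 1 and 2).

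BNIP3 and BNIP3L encode related receptors for the removal of mitochondria. BNIP3 measured 39.1, 26, 28.2, 18.4, 17.1, 15.6, 17.7 and 17.1 TPM in replicate 1 and 33.2, 26.3, 22.5, 14.5, 10.2, 13.7, 15.7 and 21 TPM in replicate 2. All libraries after 0 h were below both 0 h libraries. BNIP3 fell at 36 h (log2 difference -1.38, SE 0.26, adjusted p = 0.0168) and at 48 h (log2 difference -1.25, SE 0.26, adjusted p = 0.0186), with scaled values of -1.25 with adjusted p = 0.0576 and -0.71 with adjusted p = 0.261. Its differences at 24, 72 and 96 h passed with the block (adjusted p = 0.0191, 0.0163 and 0.0469). Both calls were lost without either 0 h library, that of 36 h also without 36 h replicate 2 and that of 48 h without either 48 h library (adjusted p 0.0543 to 0.201). BNIP3L stayed between 23.9 and 41.8 TPM and was not called. The BNIP3 share of their sum was 52.0% and 49.3% at 0 h, 34.6% and 30.4% at 24 h, and 30.3% and 43.4% at 96 h, and every library from 12 h on lay below both 0 h libraries.

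Of the remaining HIF-linked genes, ANKRD37 ranged from 1.12 to 2.89 TPM, the growth-arrest gene NDRG1 from 16 to 33.8 TPM and the histone demethylase KDM3A from 12.3 to 40.4 TPM. None was called on TPM as deposited. KDM3A was called higher at 5 times with scaling and block together, with differences from 0.65 at 72 h to 0.85 at 12 h. DDIT4 (REDD1), a stress-induced inhibitor of mTORC1, measured 54.3, 60.5, 67.8, 61.9, 129, 124, 133 and 159 TPM in replicate 1 and 46.8, 40.6, 51.4, 50.7, 48.3, 53.4, 47.3 and 80.3 TPM in replicate 2. Replicate 1 was high from 36 h on, and replicate 2 at 96 h alone. The slope of DDIT4, 0.28 per 24 h (SE 0.09, adjusted p = 0.0813), passed with the block (adjusted p = 0.00535), the 1 member whose slope was called upward in that fit. With scaling and block together DDIT4 was also among the members called higher than 0 h at some time.

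Several members differed between the replicate series late in the course. At 96 h VEGFA was 5.71 times as high in replicate 1 as in replicate 2, PFKFB4 6.15 times, KDM3A 2.69 times, NDRG1 2.07 times and DDIT4 1.98 times. The log2 difference between the replicates at 96 h was 2.41 for VEGFA, 2.16 for PFKFB4, 1.36 for KDM3A, 1.01 for NDRG1 and 0.98 for DDIT4. The median was 0.52 over all genes and 0.11 over the members. Trimmed-mean scaling divides 96 h replicate 1 by 1.26 and 96 h replicate 2 by 0.735, which makes each of these 96 h ratios smaller. PFKFB4 measured 5.83, 6.34, 25.1, 13.4, 13.9, 10.6, 17.4 and 12.7 TPM in replicate 1 and 4.01, 5.79, 5.53, 4.44, 4.12, 2.67, 4.02 and 2.06 TPM in replicate 2. From 12 h on each PFKFB4 library of replicate 1 was above every library of replicate 2. NDRG1 split after 36 h, from 30.03 and 31.3 TPM at 36 h to 33.8 and 16.3 TPM at 96 h. EPAS1 at 12 h was 68.6 and 20.5 TPM. With 1 library per replicate and time these differences have no test, and what sets the series apart was not tested. ADM and ALDOC differed the other way: at 48, 72 and 96 h replicate 1 was 0.343, 0.51 and 0.474 times replicate 2 for ADM and 0.415, 0.495 and 0.515 times for ALDOC. For CA12, ADM and ALDOC the late libraries of both series lay below both 0 h libraries.

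**Figure D5:**
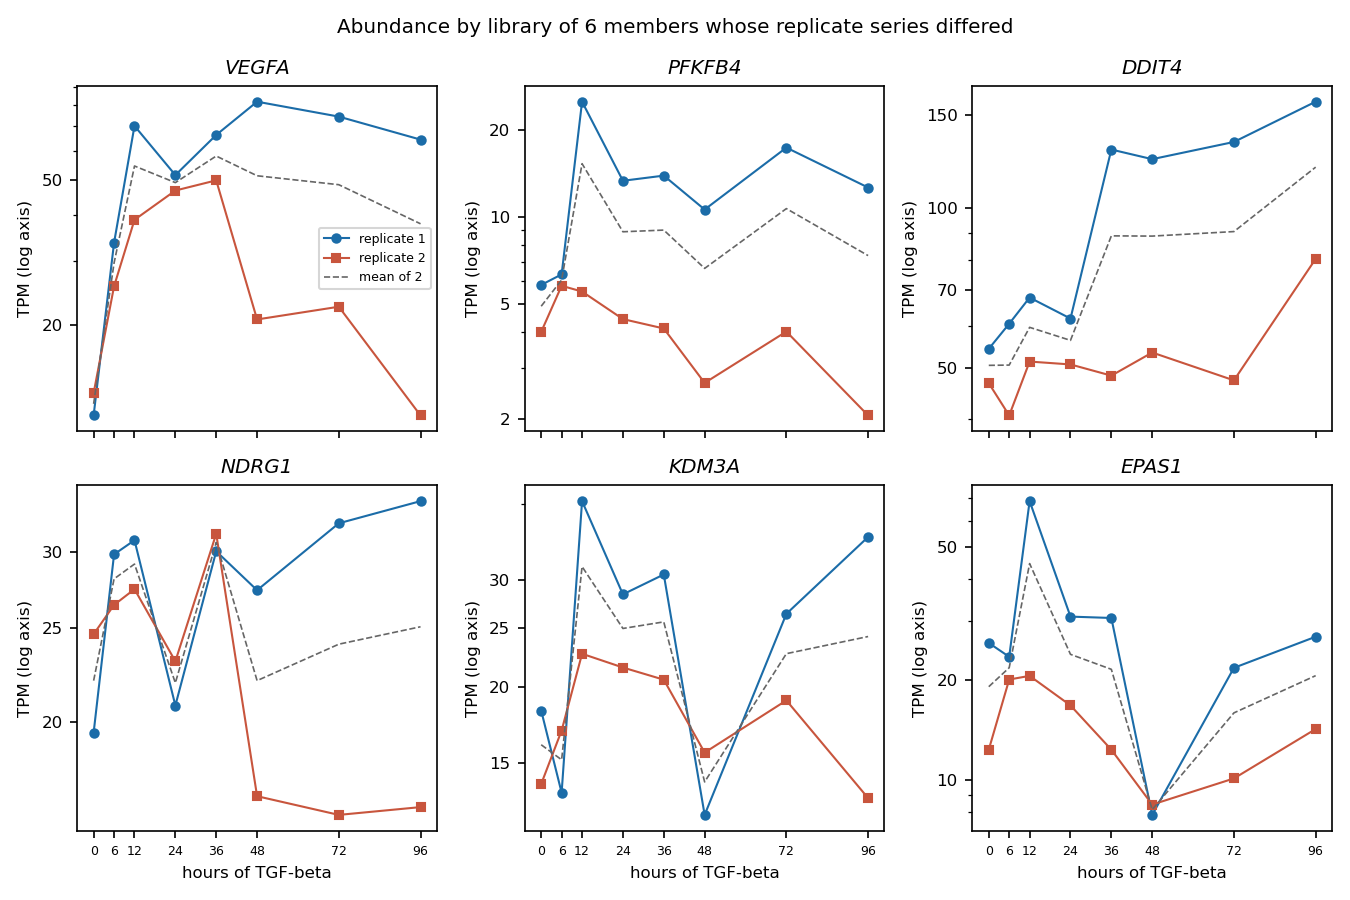
TPM on a log axis against hours for VEGFA, PFKFB4, DDIT4, NDRG1, KDM3A and EPAS1, with replicate 1 as circles, replicate 2 as squares and their mean as a dashed line. VEGFA lies above its 0 h values in both replicates from 6 to 36 h, and the replicates part from 48 h, ending at 64.4 and 11.3 TPM.

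Over the course, 19 of the 36 tested members had their highest mean at 12 h and 12 at 0 h, and 23 had their lowest at 48 h. Over all genes tested, 39.0% had their highest mean at 12 h, 31.1% at 0 h, and 42.6% their lowest at 48 h. The small RNA share was lowest in 12 h replicate 1 and highest in 48 h replicate 1, and its part in this timing was not tested.

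Other genes of the same pathways, from 3 lists set beside the members, held some that rose. Of 22 tested among 35 further genes of glucose, glycolysis and pyruvate use, 1 rose and 0 fell at 24 h, 1 rose and 5 fell at 48 h, and 1 rose and 1 fell at 96 h, beside 0.613% and 0.595%, 0.796% and 6.8%, and 0.536% and 1.26% of all genes. At 48 h the block gave 1 higher and 12 lower, beside 16.6% of all genes either way, and scaling 1 higher and 1 lower, beside 4.78%. At 96 h the block gave 1 higher and 4 lower, beside 4.82% of all genes either way. Scaling gave 1 higher and 0 lower at 96 h, beside 2.57%. ENO3, the muscle enolase, rose at 24 h from 13.3 ± 2.45 to 58.9 ± 20.1 TPM (log2 difference 2.04, SE 0.38, adjusted p = 0.0228), and at 96 h was 14.7 ± 1.25 TPM. SLC2A12, another glucose transporter, rose at 96 h from 1.17 ± 0.198 to 6.12 ± 1.86 TPM (1.69, SE 0.32, adjusted p = 0.0198). HKDC1, a hexokinase-like gene, fell at 96 h from 24.3 ± 5.76 to 7.75 ± 3.27 TPM (-1.56, SE 0.34, adjusted p = 0.0364), which scaling ended (adjusted p = 0.184), while both rises held with scaling. ENO3 was not called without any 1 library of 0 or 24 h (adjusted p 0.079 to 0.364), SLC2A12 without either 0 h library or 96 h replicate 1 (0.119 to 0.189), and HKDC1 without 96 h replicate 1 or any 1 library of 0, 24, 48 or 72 h (0.0505 to 0.461).

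Of 14 tested genes among 15 further parts of the HIF machinery, limma called 0 against 0 h at every time. Of all genes it called from 0.0177% (6 h) to 7.6% (48 h). Of the 14, 0 to 2 had an unadjusted p under 0.05. The block called 1 lower at 24 h and 1 lower at 48 h, beside 3.79% and 16.6% of all genes either way. Scaling called 0 at every time, beside 0.506% (6 h) to 4.78% (48 h) of all genes. Among 34 further hypoxia-induced genes, 2 rose and 0 fell at 24 h, 0 rose and 4 fell at 48 h, and 0 rose and 2 fell at 96 h. With scaling 4 rose and 0 fell at 48 h, and with the block 3 rose and 5 fell, against the same shares of all genes as for the first list. The median difference of these 34 was 0.08 at 96 h, beside -0.49 for the members and -0.20 for all genes.

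The called genes of that list included P4HA2, HILPDA and GBE1. P4HA2, a collagen prolyl hydroxylase, rose at 24 h from 19.4 ± 0.813 to 43.9 ± 2.64 TPM (1.14, SE 0.25, adjusted p = 0.0494). HILPDA, a lipid droplet protein, was lower at 96 h, 8.06 ± 0.318 TPM against 27.6 ± 12.8 at 0 h (-1.58, SE 0.35, adjusted p = 0.0426). So was GBE1, the glycogen branching enzyme, with 11.3 ± 1.53 TPM against 30.04 ± 0.849 (-1.34, SE 0.28, adjusted p = 0.0285). Scaling ended both of these falls (adjusted p = 0.142 and 0.09). P4HA2 was not called without any 1 library of 0, 6, 24, 36 or 72 h (adjusted p 0.0668 to 0.521). HILPDA was not called without 0 h replicate 2 or any 1 library from 24 h on (0.0538 to 0.566), and GBE1 without 96 h replicate 1 or any 1 library of 0 or 24 h (0.0505 to 0.316).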

How the data were processed

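RNA from the 16 libraries was extracted with Trizol, made into libraries with the Illumina TruSeq RNA kit and sequenced, per the labels' protocols. The authors deposited TPM values per gene, in a table for each replicate number, made with tools that include Bowtie and RSEM, per the submitters' processing notes. Neither build nor annotation is stated (not given in the sources). TPM hold no read totals, so depth is unknown and counting error cannot be set. All 16 columns of values were matched to samples by time and replicate number. No 2 libraries held identical values (highest correlation 0.989).

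Values were tested as log2(TPM + 1) with limma 3.58.1 in R 4.3.3 (1 mean per time, moderation with a mean trend, two-sided). The 16967 genes that reached 1 TPM in 2 or more libraries entered, with Benjamini-Hochberg adjustment over all of them in each comparison. A slope on hours is given per 24 h. Exact permutation of 2 against 2 libraries allows no p under 0.333 and was not used. The fits were tested on simulated data. Tables and shares were made with Python 3.11.15, pandas 2.3.3 and numpy 2.4.6.

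Deviations from the mean of each time were shared by same-numbered libraries, with correlations above 0.1 in 28 of 28 pairs of times (lowest 0.128, median 0.438), and in 27 of 28 with trimmed-mean scaling (lowest 0.0707). The numbers come from the labels, which do not say that a number marks a batch. The main fit did not pair the samples by number. Values with a replicate block, which does pair them, therefore stand beside results that the block changes. Trimmed-mean scaling divided each library by the mean log ratio to a reference library after leaving out 30% of the ratios and 5% of the levels at each end. Other alternatives rescaled the libraries without the 6 small RNAs, used a pseudocount of 0.1, a filter at 5 TPM or no filter, and left out each library.

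The members and the lists were chosen with earlier results of these data known. Values of every library are given for members called in any comparison with or without the replicate block, and other members by their range. Promoter windows came from a RefSeq table and were matched by symbol. Of the further hypoxia-induced genes, 1 that was called is not reported here by name.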

Additional observations from a re-analysis of the deposited data

How the results depend on the processing

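Counts of called members out of 36 follow, beside 0 (6 h), 0 (12 h), 2 (24 h), 6 (36 h), 16 (48 h), 7 (72 h), 3 (96 h), 0 between 6 and 24 h, 0 between 24 and 96 h, 10 by the F test and 13 by the slope. With the replicate block, which uses the pairing of the numbers, the counts were 3 (12 h), 5 (24 h), 14 (72 h), 8 (96 h), 1 between 6 and 24 h, 1 between 24 and 96 h and 16 by the F test, and the others lay within 1.5 times. It ended no call of a member, and beyond those given beside the results it made none. Trimmed-mean scaling gave 1 (6 h), 1 (12 h), 3 (36 h) and 7 (48 h), and with the replicate block as well 2 (6 h), 8 (12 h), 5 (24 h), 8 (48 h), 7 (96 h) and 3 between 6 and 24 h, beside 2.79, 5.03, 6.92, 11.1, 7.36 and 1.72% of all genes. Rescaling without the small RNAs gave 1 (12 h) and 8 (48 h), beside 0.768 and 4.2% of all genes. Without a filter the counts were 1 (24 h), 2 (36 h), 4 (72 h), 2 by the F test and 8 by the slope of 37 tested, beside 0.502, 1.0, 1.06, 0.558 and 1.52% of all genes. Without both 36 h and 48 h replicate 2 libraries, which list more genes at 0, they were 0 (36 h) and 2 by the F test, beside 0.048 and 0.719% of all genes. The pseudocount of 0.1 and the filter at 5 TPM moved no count by over 1.5 times.

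Leaving out 1 library at a time gave 0 calls (6 h), 0 to 2 (12 h), 0 to 4 (24 h), 0 to 7 (36 h), 1 to 17 (48 h), 1 to 11 (72 h), 0 to 4 (96 h), 0 between 6 and 24 h, 0 to 2 between 24 and 96 h, 1 to 12 by the F test and 8 to 13 by the slope. The number of all genes called also changed with the library left out in each of these comparisons, so these ranges are not particular to the members. At 6 h, 23 of the 36 members were negative on TPM as deposited and positive with trimmed-mean scaling. Among the results named here, the sign of BNIP3L (6 h), negative on TPM as deposited, was positive with trimmed-mean scaling (0.09) and with scaling and the replicate block (0.09). SLC16A3 (12 h) was -0.034 without 12 h replicate 1 and 1.013 without 12 h replicate 2. The cause of these changes was not tested. Because TPM keep no depth, precision rests on 2 libraries per time, and all comparisons with 0 h share 2 libraries.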
